A study of Mus musculus with 6 samples.

Results

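The p200 family, also called PYHIN proteins, and its relative Aim2 were followed in ear skin RNA of mouse pups at postnatal day 3. Members were the genes of the count table whose symbol belongs to the numbered Ifi2 series of this family or is Mndal, Mnda or Aim2, selected on a mean of at least 5 expected counts over the 6 libraries. The symbols matched 12 of 18404 genes, and all 12 passed the count minimum. The lowest, Ifi206, had a mean of 29.1 counts, so no gene lay just outside it. They are Ifi202b, Ifi203, Ifi204, Ifi205, Ifi206, Ifi207, Ifi208, Ifi209, Ifi211, Ifi213, Mndal and Aim2. Mnda is an older name of Ifi211 in RefSeq. Ifi214, which lies in the same cluster, was not analysed here. The difference between the groups was not part of the rule, but the family was chosen with earlier results of these data known.

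The tested pups carried an induced endothelial deletion of Kdr, the gene of VEGFR2, and are labelled ecko (3 libraries). Their littermate controls are labelled control (3 libraries). Tamoxifen treatment is recorded for all 6, and the series text gives a start at postnatal day 1 with 60 µg per day for collection at postnatal day 3, while the series name adds 48 h. The sources used here name neither the strain, the Cre driver nor the alleles of the controls. They do not say whether a library is 1 animal, so p-values measure only the spread between these libraries, part of which may be technical.

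PYHIN proteins join an N-terminal pyrin domain, which binds other pyrin domains, to a C-terminal HIN domain, which holds DNA. AIM2 senses double-stranded DNA in the cytosol and assembles the adaptor ASC and caspase-1 into an inflammasome. Several relatives act in the nucleus on transcription or pass DNA signals to the STING pathway. Many are induced by interferons, and macrophages and other myeloid cells are a known site of their expression. In the mouse the genes have multiplied into a tandem cluster that differs between inbred strains.

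The libraries held 16987130 to 17979182 expected counts each. Kdr, the deleted gene, had 348, 431 and 370 counts in ecko 1 to 3, against 1599, 1860 and 1337 in control 1 to 3, with a log2 fold change of -2.05 ± 0.12 (SE; edgeR adjusted p = 0.0002). Reads of Ddx3y, a Y-linked gene, were near absent from ecko 3 (6 counts) and control 2 (4 counts), and the remaining libraries held 1445 to 1641, so the libraries of a group are not all repeats of 1 sample. Keratinocyte and fibroblast markers of skin were abundant in every library, with Krt14 at 27812 to 32486 and Col1a1 at 147204 to 164825 counts. In pairwise chi-square per gene the pairs with control 3 ran from 13.2 to 19.8 and the other pairs from 4.18 to 11.5. Because whole skin was sequenced, fewer cells of a type and less RNA per cell cannot be told apart.

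All 12 genes lie on chromosome 1 within 682.2 kb of GRCm38.p6, from Aim2 (173349547 to 173466040, plus strand) through Ifi206, Ifi213, Ifi209, Ifi208, Ifi207, Ifi204, Mndal, Ifi211, Ifi203 and Ifi202b to Ifi205 (174011998 to 174031755, minus strand). The RefSeq promoter table of this build holds 13 entries for 11 of the members, and Ifi204 has none. The 250 bases before each start were searched on both strands for the core of the interferon-stimulated response element, written here as GAAA, any 2 bases and GAAA again. It occurred upstream of 8 of the 11 members, in 9 of the 13 entries, against 2.98% of all 32851 promoter entries. The stretches below are shown because they carry this shared element, in capitals, with 10 bases on either side, each 5′ to 3′ on the strand of its gene.

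Ifi206, chr1:173491339-173491368, minus strand: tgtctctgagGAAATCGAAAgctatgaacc

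Ifi213, chr1:173599326-173599355, minus strand: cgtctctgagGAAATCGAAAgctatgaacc

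Ifi208, chr1:173673597-173673626, plus strand: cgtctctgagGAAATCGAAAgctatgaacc

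Mndal, chr1:173880204-173880233, minus strand: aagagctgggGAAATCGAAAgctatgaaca

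Ifi203, chr1:173942508-173942537, minus strand: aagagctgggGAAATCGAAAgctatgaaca

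Ifi207, chr1:173741831-173741860, minus strand: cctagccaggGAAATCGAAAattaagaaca

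Ifi211, chr1:173913064-173913093, minus strand: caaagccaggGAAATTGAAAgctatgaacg

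Ifi205, chr1:174031870-174031899, minus strand: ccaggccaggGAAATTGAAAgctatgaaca

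The element began 35 to 134 bases before the annotated start in these entries. The bases between the repeats were TC in 6 entries and TT in 2, the TT form in Ifi211 and Ifi205, and in 7 entries gctatgaac followed directly. The stretch of Mndal lies in exons of GENCODE transcripts of the gene, and the other stretches shown overlap no GENCODE exon. Against the RefSeq gene spans, the stretches of Mndal and Ifi203 lie inside the span, and those of Ifi213, Ifi211 and Ifi207 reach into its edge. The starts used for these genes are therefore not the outer ends of their spans. A second entry of Mndal held the core on the other strand, 54 bases before its start, and a second entry of Ifi203 held none. Whole upstream sequences were near copies in several pairs. In the entries shown, Mndal and Ifi203 shared 89.3% of aligned positions, Ifi213 and Ifi208 87.9%, Ifi206 and Ifi208 86.2%, and Ifi207 and Ifi211 85.04%. The other pairings of the entries of Mndal and Ifi203 shared 43.45% to 48.7%. Windows of fixed length were aligned, so identity also depends on where the annotated start lies. Ifi211 and Ifi205, with the element 37 and 134 bases before their starts, shared 47.7%.

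Ifi209, Aim2 and Ifi202b did not hold the core in the 250 bases. Ifi209 held the shorter run AAATNGAAA, which overlaps the core, was chosen after the sequences were seen, and is upstream of 9 of the 11 members and of 1.68% of all promoter entries. Its stretch is shown with that run in capitals, and that of Ifi202b is shown whole as a window that holds neither form. The window of Aim2 holds neither form as well and is not shown, since 33 of its 250 bases lie in annotated exons. It lies inside the RefSeq span of Aim2, and the outer start of that span was not searched.

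Ifi209, chr1:173630771-173630799, plus strand: atctctgagtAAATCGAAAgagatgcact

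Ifi202b, chr1:173982845-173983094, minus strand: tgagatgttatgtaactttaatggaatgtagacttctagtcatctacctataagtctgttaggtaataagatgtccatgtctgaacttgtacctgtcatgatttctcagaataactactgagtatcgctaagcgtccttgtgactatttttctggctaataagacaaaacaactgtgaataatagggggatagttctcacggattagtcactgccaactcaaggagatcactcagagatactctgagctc

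A match of letters is a description of the window, and its absence says nothing of regions farther away.

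All 12 members had a higher mean in ecko than in control, where 49.5% of the 14920 genes tested did. The median log2 fold change of the 12 was 0.95, against -0.002 over all genes tested. In 8 members every ecko library lay above every control, a pattern shown by 7.55% of all genes, and in 0 members did it run the other way (8.11% of all genes). The quasi-likelihood test of edgeR, adjusted by Benjamini-Hochberg over all genes, called 0 of the 12, as it called 0% of all genes higher and 0.0067% lower. Unadjusted, 9 of the 12 had p under 0.05 and were higher in ecko, where 4.92% of all genes did, and 0 were lower (4.1% of all genes). A ratio of at least 1.5 was reached by 8, against 1.84% of all genes. The Wald test of DESeq2 called 6 of the 12 higher, namely Ifi204, Ifi205, Ifi206, Ifi209, Ifi213 and Mndal, where it called 0.583% of all genes higher, and limma-voom called 0. A replicate block called 5 members (0.59% of all genes), Ddx3y as a covariate 0 (0.0067%) and the fit without ecko 3 also 0 (0.0133%). With 1 library left out, 8 to 10 members had groups without overlap, 10 of them without ecko 3 (13.3% of all genes), 9 without control 1 (15%) and 9 without control 3 (13.3%), and 8 in the other leave-outs (10 to 13%). The members share one cluster, promoter copies and reads, so they are not 12 separate measurements. Ifi204 and Ifi205, among the 8 without overlap, overlapped between groups once their counts were summed with those of Ifi211. The members were also chosen with earlier results of these data known, so the shares over all genes serve as description only. Values below are CPM, counts scaled to library size after TMM normalization, given for ecko 1, 2 and 3 and then for control 1, 2 and 3.

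**Figure D1:**
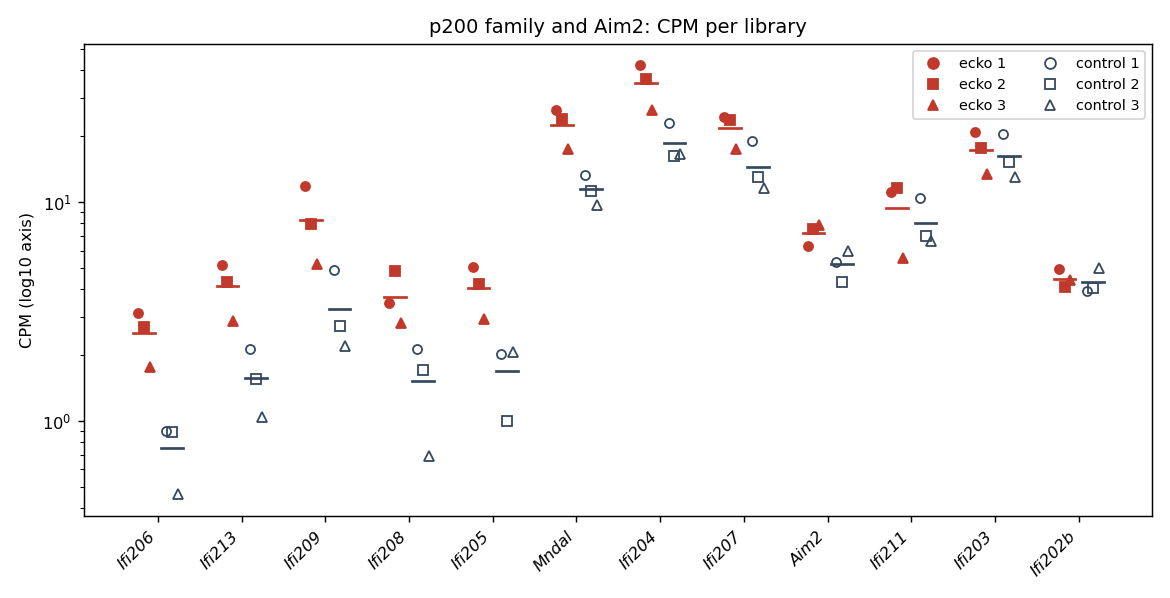
CPM of each member in every library (log10 axis), ecko in red to the left and control as open dark blue symbols to the right, with lines at the group means; the symbol shape gives the replicate number. From Ifi206 to Ifi204 on the left and in Aim2 the red points all lie above the blue ones, while in Ifi207, Ifi211, Ifi203 and Ifi202b the groups overlap.

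Ifi206, Ifi213 and Ifi208, which have similar promoters, had among the largest ratios in the family and its lowest levels. Ifi206 had 3.12, 2.69 and 1.75 CPM in ecko, against 0.899, 0.885 and 0.461 CPM in control. All 3 ecko libraries were above all controls, and the log2 fold change was 1.74 ± 0.32 (SE; 3.34-fold, edgeR adjusted p = 0.169). Ifi213 and Ifi208 are also listed by RefSeq as Pydc4 and Pydc3, names for pyrin domain-containing proteins. Ifi213 had 5.17, 4.32 and 2.87 CPM in ecko, against 2.14, 1.55 and 1.04 CPM in control (log2 fold change 1.38 ± 0.30, SE; edgeR adjusted p = 0.253). Ifi208 had 3.45, 4.82 and 2.81 CPM in ecko, against 2.14, 1.72 and 0.692 CPM in control (1.28 ± 0.36; adjusted p = 0.402). In both genes ecko 3 was the lowest ecko library and control 1 the highest control, and the groups did not overlap. Counts behind these values were small, from 30 to 56 for Ifi206 in ecko and from 8 to 16 in control.

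Ifi209, which RefSeq also lists as Pyhin1, had 11.8, 7.91 and 5.21 CPM in ecko, against 4.89, 2.71 and 2.19 CPM in control. The groups were separated by a narrow gap between ecko 3 and control 1, with a log2 fold change of 1.35 ± 0.37 (SE; edgeR adjusted p = 0.447). Ifi205, whose product regulates expression of the inflammasome adaptor ASC in mouse macrophages, had 5.06, 4.21 and 2.92 CPM in ecko, against 2.02, 0.996 and 2.08 CPM in control (1.26 ± 0.30; adjusted p = 0.302). Control 2 was the lowest library for Ifi205, while 8 of the 12 members were lowest among controls in control 3.

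Ifi204 and Mndal, the members with the highest mean levels per kilobase, had about 2-fold higher means in ecko. Ifi204 is often treated as the mouse counterpart of human IFI16, a DNA sensor that signals through STING, and RefSeq lists Ifi16 among its names. It had 42.2, 36.4 and 26.4 CPM in ecko, against 22.99, 16.2 and 16.5 CPM in control, means of 35.02 ± 7.97 and 18.6 ± 3.82 CPM (SD, n = 3 each). No ecko library fell into the control range, and the log2 fold change was 0.91 ± 0.20 (SE; 1.89-fold, edgeR adjusted p = 0.3002). Mndal, named for its likeness to the human myeloid nuclear differentiation antigen, had 26.3, 23.9 and 17.4 CPM in ecko, against 13.3, 11.3 and 9.74 CPM in control. Its log2 fold change of 0.98 ± 0.17 (SE; 1.97-fold) had the lowest adjusted p of the members in edgeR, 0.1496, and its groups did not overlap.

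Aim2, the inflammasome sensor, was higher in ecko by a smaller amount. It had 6.29, 7.51 and 7.90 CPM in ecko, against 5.34, 4.32 and 5.996 CPM in control, and the groups did not overlap. The log2 fold change was 0.47 ± 0.17 (SE; 1.39-fold, edgeR adjusted p = 0.497). Its order among the libraries was its own: ecko 3 was the highest ecko library, whereas 10 of the 12 members were lowest there within ecko.

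Ifi207, which binds STING, had 24.6, 23.7 and 17.4 CPM in ecko, against 19.1, 13.005 and 11.6 CPM in control. Control 1 lay above ecko 3, so the groups overlapped, with a log2 fold change of 0.59 ± 0.20 (SE; edgeR adjusted p = 0.497). Ifi211 had 11.1, 11.7 and 5.56 CPM in ecko, against 10.5, 7.03 and 6.63 CPM in control. Here ecko 3 was the lowest of all 6 libraries, and the log2 fold change was 0.24 ± 0.29 (SE; adjusted p = 0.828). It was 0.50 without ecko 3 and 0.47 without control 1, and lower in the other leave-outs, at 0.0576 without ecko 2, 0.0977 without ecko 1, 0.12 without control 3 and 0.14 without control 2.

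Ifi203 and Ifi202b lay near 0 on the log2 scale. Ifi203 had 21.0, 17.6 and 13.4 CPM in ecko, against 20.5, 15.3 and 13.1 CPM in control, nearly the same range in both groups (log2 fold change 0.09 ± 0.20, SE; edgeR adjusted p = 0.907). The product of Ifi202b lacks a pyrin domain and restrains AIM2 by taking up DNA. Ifi202b had 4.95, 4.09 and 4.39 CPM in ecko, against 3.93, 4.04 and 5.02 CPM in control, and control 3 was its highest library (0.05 ± 0.17; adjusted p = 0.939). The sign of both genes turned when single libraries were left out, with log2 fold changes of -0.0746 to 0.29 for Ifi203 and -0.0328 to 0.17 for Ifi202b.

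**Figure D2:**
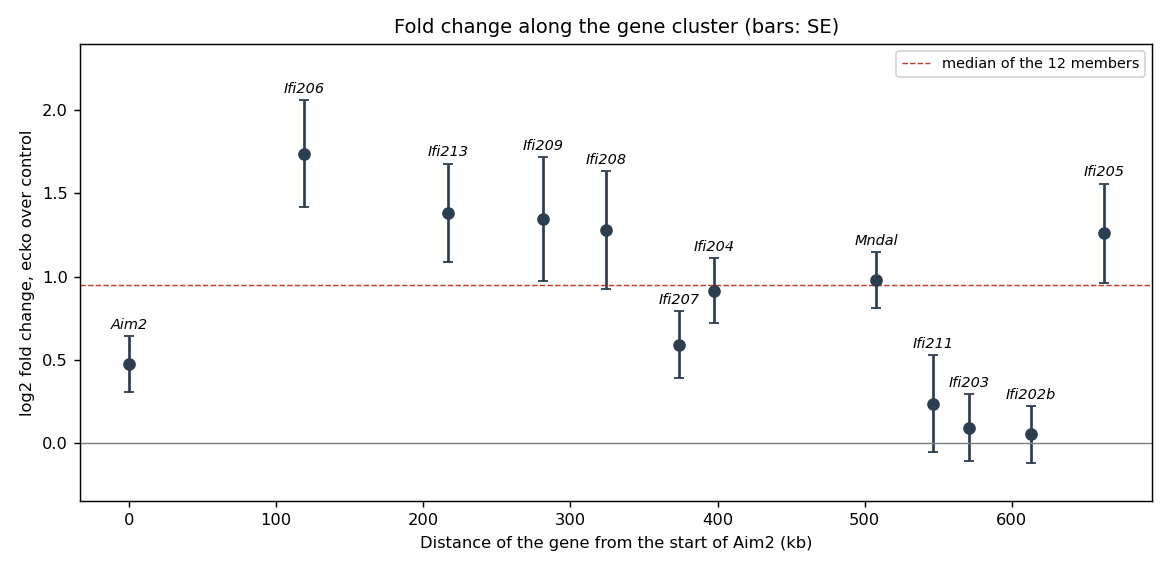
Log2 fold change of ecko over control (points, with bars of 1 SE) for each member against the distance of the gene from the start of Aim2 in kb; the dashed line is the median of the 12 members, 0.95. Ifi206, Ifi213, Ifi209 and Ifi208 lie together between 1.28 and 1.74 and Ifi211, Ifi203 and Ifi202b together between 0.05 and 0.24, while Ifi205 at 1.26 stands beside Ifi202b.

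Along the cluster, the 4 largest log2 fold changes of the 12 belonged to members next to each other in order, Ifi206, Ifi213, Ifi209 and Ifi208, with 1.74, 1.38, 1.35 and 1.28. The 3 smallest also stood in a row, Ifi211, Ifi203 and Ifi202b, with 0.24, 0.09 and 0.05. Ifi204 and Mndal, adjacent members in the middle, had 0.91 and 0.98. Between these runs neighbours differed: Mndal, with 0.98, adjoins Ifi211, with 0.24, and Ifi205, with 1.26, adjoins Ifi202b, with 0.05, 662.5 and 613 kb from the start of Aim2. No test of position was made, and neither run held in every leave-out. Ifi205 stood above Ifi208 without control 3 (1.435 against 0.94), ecko 2 (1.24 against 1.04) and ecko 3 (1.447 against 1.441). Without ecko 1 it stood above Ifi209 (1.07 against 1.002). Without control 1 or control 2 the 4 named stayed the largest. Leaving out ecko 3 put Aim2 (0.40) below Ifi211 (0.50). Mndal and Ifi203, the closest pair at 89.3% in the promoter entries shown, had 0.98 and 0.09, and Ifi207 and Ifi211, at 85.04%, had 0.59 and 0.24. Mndal and Ifi203 each have another entry, and counts per gene do not tell which start was used. Among members with the shared element the log2 fold change ran from 0.09 (Ifi203) to 1.74 (Ifi206). Of the members without it Ifi209 had 1.35, Aim2 0.47 and Ifi202b 0.05. Around the cluster 2 neighbouring genes were tested, and neither was higher in ecko: the adhesion gene Cadm3 had a log2 fold change of -0.18 ± 0.11 and Ackr1, a chemokine-binding receptor of venules, of -0.25 ± 0.42 (SE; edgeR adjusted p = 0.6305 and 0.877, groups overlapping). These neighbours overlap each other, and their counts were not whole numbers.

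Levels of different members were compared as CPM per kilobase of the longest protein-coding GENCODE transcript. In control Ifi204 stood first with 8.09 ± 1.66 CPM per kilobase, against 0.246 ± 0.0817 for Ifi206, the last (SD, n = 3). The control ranges of Mndal, Ifi211, Ifi203 and Ifi207 overlapped from each neighbour to the next, as did those of Ifi205, Ifi209, Ifi213, Ifi208 and Ifi206, while Ifi204, Ifi207, Ifi202b and Aim2 were separate from the neighbours below them. In ecko Ifi204 again stood first with 15.3 ± 3.47 and Ifi206 last with 0.827 ± 0.229 CPM per kilobase. The summed level of the family was 66.1, 59.8 and 43.15 CPM per kilobase in ecko 1 to 3, against 42.1, 31.2 and 30.4 in control 1 to 3. Ecko 3 and control 1 differed by little in this sum.

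Shares of this sum were then set side by side. Ifi204 took 27.8%, 26.5% and 26.7% of the summed level in ecko, against 23.8%, 22.7% and 23.7% in control. Mndal took 19.6% to 19.9% in ecko, against 15.5% to 17.9% in control. Shares of these members and of Ifi206, Ifi209 and Ifi213, 5 in all, were higher in every ecko library than in any control. Shares were lower for Ifi203, with 7.84% to 8.47% in ecko against 11.5% to 13.1% in control, and for Ifi211, with 7.22% to 10.9% in ecko against 12.2% to 13.9% in control. The other 5 members overlapped, among them Aim2, with 4.74% ± 1.57 in ecko and 5.43% ± 1.34 in control (SD, n = 3 each). These shares were compared within libraries and do not depend on the scaling between them. They are parts of a whole, so higher shares of some members lower those of others, and they have no counterpart over all genes. Ifi204 and Ifi211 also share transcript windows, so reads may be divided between them. Added together, the shares of Ifi204 and Ifi211 overlapped between the groups. The part of read division in the opposite shares was not tested. In CPM neither member with lower shares had a lower mean in ecko. Ifi203 had means of 17.3 in ecko and 16.3 in control, and Ifi211 of 9.45 and 8.04.

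**Figure D3:**
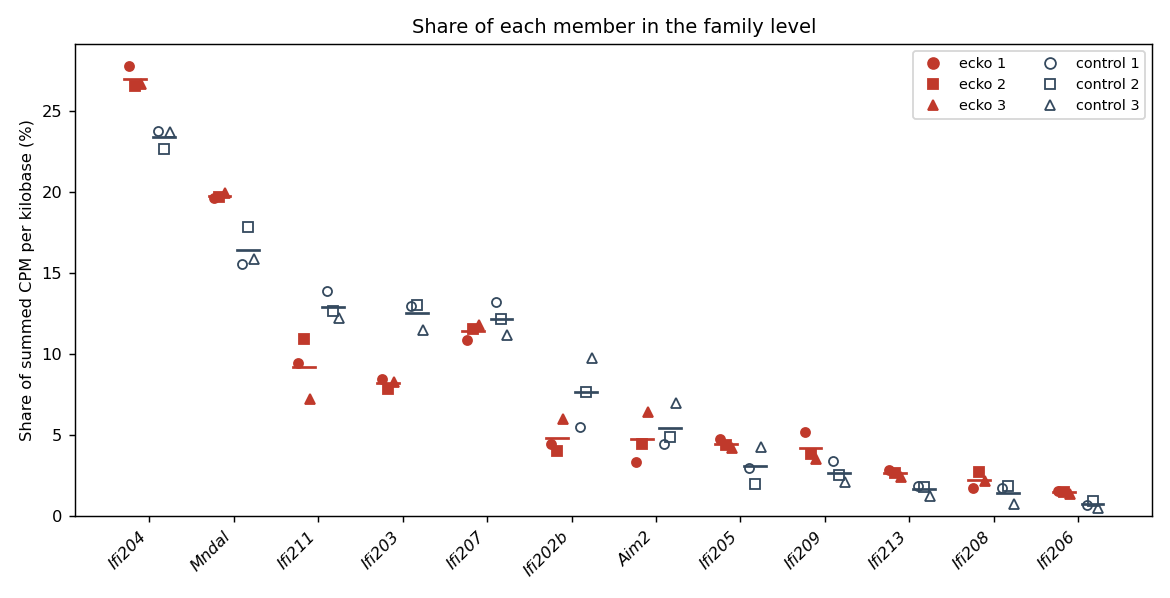
Share of each member in the summed CPM per kilobase of the 12 members (percent, axis from 0), ecko in red to the left and control as open dark blue symbols to the right, with lines at the group means. Ifi204 and Mndal lie higher in ecko and Ifi211 and Ifi203 lower, without overlap, but Ifi204 and Ifi211 share transcript windows and their shares added together overlap.

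Some of these genes cannot be counted apart with certainty. Of all windows of 50 bases in the longest coding transcript, 72.9% in Ifi211 and 49.6% in Ifi205 also occurred in transcripts of another gene, against 0.789% in Aim2 and 0% in Ifi202b. Ifi209, Ifi204, Ifi213, Mndal, Ifi208 and Ifi206 had 24.5% to 35.1%, Ifi203 10.7% and Ifi207 7.2%. Mndal, at 27.2%, shared 296 windows with Ifi211 and 262 with Ifi205. Ifi205 and Ifi211 shared 774 windows with each other, Ifi204 and Ifi211 shared 521, and Ifi208 and Ifi213 shared 619. Deposited counts of Ifi203, Ifi204, Ifi205 and Ifi211 were not whole numbers in any of the 6 libraries, as where reads are divided between genes. Those of Ifi202b, Ifi207, Ifi209, Ifi213 and Aim2 were whole in all 6, while Mndal had counts that were not whole in 2 libraries and Ifi206 and Ifi208 in 1 each. Ifi209 shared 1175 windows, 34.7% of its own, with Ifi214. With the counts of Ifi205 and Ifi211 summed as 1 gene the log2 fold change was 0.47 ± 0.27 (SE; edgeR adjusted p = 0.630), against 1.26 and 0.24 apart. Ifi204 and Ifi211 summed gave 0.74 ± 0.22 (adjusted p = 0.483). In both sums control 1 lay above ecko 3, so the groups overlapped. Counted apart, Ifi204 and Ifi205 each had groups without overlap, which thus depends on how shared reads were divided.

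Libraries within a group differed in the same order for most members. Among ecko libraries ecko 1 was highest in 9 members, and among controls control 1 was highest in 9. On log2 CPM centred over the 6 libraries, the mean of the members stood at 0.66, 0.54 and 0.07 in ecko 1 to 3, against -0.09, -0.51 and -0.66 in control 1 to 3. Ifi204 and Mndal were close to this mean, which includes them, with root mean square differences of 0.065 and 0.082. Ifi202b was the farthest, at 0.50. The genes outside the family with the smallest differences were Ddx60 (0.074), an RNA helicase, Trim30d (0.085), Cmpk2 (0.090), a mitochondrial nucleotide kinase, Rnf213 (0.0994), an E3 ligase, and Siglec1 (0.0999), a sialic acid receptor of macrophages. This likeness rests on 6 libraries and includes the difference between the groups.

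**Figure D4:**
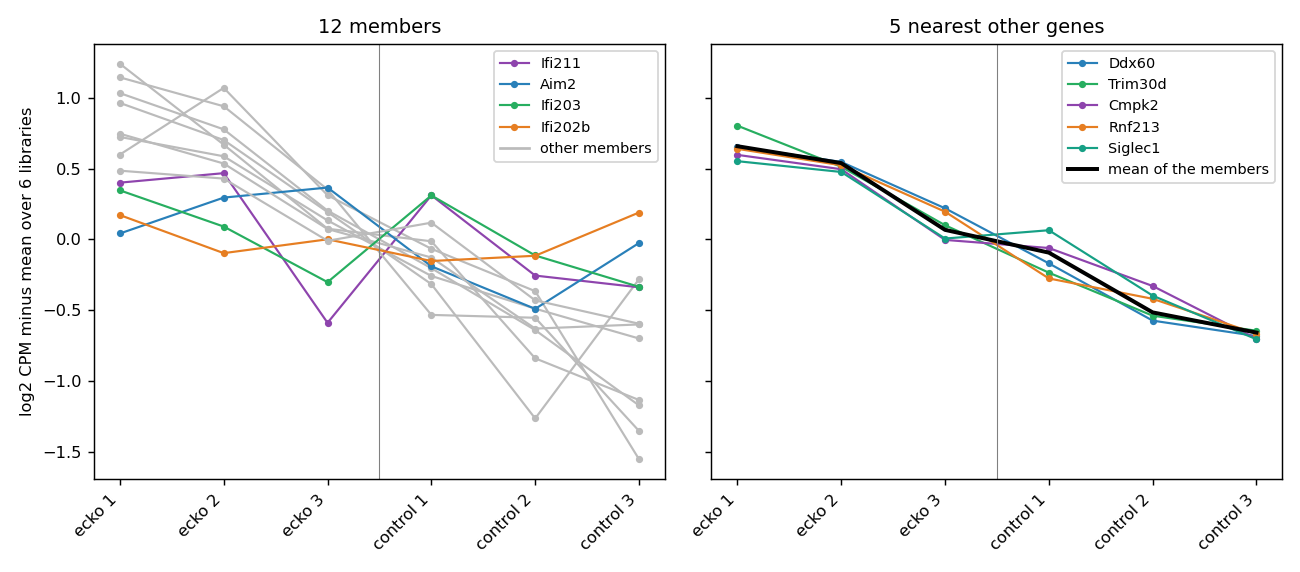
Log2 CPM minus its mean over the 6 libraries, for the 12 members (left) and for the 5 genes outside the family nearest to the mean of the members, drawn in black (right); ecko libraries stand left of the vertical line and control libraries right of it. The mean of the members stands between 0.07 and 0.66 in ecko and between -0.66 and -0.09 in control, Ifi202b stays between -0.15 and 0.19, and Aim2 is highest in ecko 3.

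A list of inflammasome genes held the adaptor and caspase that AIM2 uses together with other sensors and the cytokines. Of 16 tested, 11 had the higher mean in ecko and 5 in control. Their median was 0.05 on the log2 scale, and edgeR called 0 in either direction. Casp4, the murine inflammatory caspase-11, was the 1 gene with groups that did not overlap, higher in ecko, a share near the 7.55% of all genes. It had 116, 101 and 82 counts in ecko, against 56, 47 and 66 in control (log2 fold change 0.83 ± 0.19, SE; adjusted p = 0.3002). The adaptor gene Pycard, which encodes ASC, had 35.2 ± 1.04 CPM in ecko and 33.7 ± 1.74 CPM in control (SD, n = 3 each; 0.06 ± 0.08). Casp1 had 0.20 ± 0.17, Il1b 0.31 ± 0.31 and Il18r1, part of the IL-18 receptor, 0.44 ± 0.29 (log2 fold change ± SE), all with groups that overlapped.

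In the cGAS-STING axis and the nucleases that limit it, 13 of 21 genes tested were above control in their mean and 8 below, the median being 0.04 on the log2 scale, and edgeR called 0. The sensor gene Cgas had 0.17 ± 0.21 and Tmem173, the gene of STING, 0.04 ± 0.11 (log2 fold change ± SE). Groups did not overlap, higher in ecko, in 5, namely Zbp1, a Z-nucleic acid sensor (1.47 ± 0.24), Irf7 (1.13 ± 0.235), the exonuclease gene Trex1 (0.45 ± 0.13), Samhd1 (0.36 ± 0.08) and Rnaseh2a (0.10 ± 0.07). They did not overlap, lower in ecko, in 3, namely Xrcc5 (-0.20 ± 0.08), Rnaseh2b (-0.21 ± 0.09) and Ddx41 (-0.10 ± 0.07). Over all genes 7.55% were without overlap higher in ecko and 8.11% lower.

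Among interferon ligands and their signalling genes 12 of 14 tested were above control in their mean (median 0.15 on the log2 scale), and 6 had groups without overlap, all higher, where 7.55% of all genes did. The largest was Usp18, an interferon-induced brake on the type I receptor, at 1.51 ± 0.27, followed in p by Irf1 (0.46 ± 0.12), Irf9 (0.63 ± 0.17) and Stat2 (0.66 ± 0.19; log2 fold change ± SE). EdgeR called 0. Of 9 ligands listed 5 were not analysed here, and the other 4 had few reads. Ifnb1 had 0, 0 and 0 counts in ecko, against 0, 1 and 0 in control, and Ifng had 0, 1 and 3 counts in ecko, against 0, 0 and 0 in control. Of 10 genes for reported partners of p200 proteins 5 were above control in their mean and 5 below (median -0.02), and the nucleolar genes Ubtf (-0.15 ± 0.07) and Ncl (-0.17 ± 0.08) had groups without overlap, lower in ecko, where 8.11% of all genes did. Myc (-0.21 ± 0.10) and Rb1 (0.07 ± 0.08, SE) overlapped between groups. EdgeR called 0 of these as well.

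Marker genes of other cell types were read as means and as summed levels. Over all genes 7.55% were without overlap higher in ecko and 8.11% lower. All 12 macrophage markers were above control in their mean, by a median of 0.15 on the log2 scale. Fcgr1 (0.69 ± 0.16), Cd68 (0.30 ± 0.08) and Mertk (0.25 ± 0.09, SE) had groups without overlap. Their summed level was 821 to 905 CPM in ecko, against 749 to 840 CPM in control, and the groups overlapped. All 4 monocyte markers tested were above control in their mean (median 0.71), and Plac8 (0.71 ± 0.15) and Ly6c2 (0.87 ± 0.32, SE) had groups without overlap. The summed monocyte level was 402 to 472 CPM in ecko, against 356 to 432 CPM in control, of which Vcan, also a matrix gene, made up most. Plac8, Ccr2 and Ly6c2 without Vcan, a sum added after the data were seen, came to 32.5, 32.3 and 24.2 CPM in ecko, against 21.8, 17.6 and 14.7 CPM in control, with no overlap. Vcan and Ccr2 each overlapped between groups, so this separation depends on the choice to leave Vcan out. Of 4 neutrophil markers tested 3 were above control in their mean, with Csf3r higher (1.15 ± 0.33) and Camp lower (-1.93 ± 0.42, SE) without overlap, and the sum was 11.05 to 48.4 CPM in ecko, against 8.28 to 19.3 CPM in control. Dendritic cell markers summed to 10.2 to 11.9 CPM in ecko, against 9.80 to 12.1 CPM in control, T and NK cell markers to 8.47 to 11.5 against 8.79 to 12.1, and B cell markers to 1.40 to 2.07 against 1.27 to 2.19. Langerhans cell markers summed to 185 to 223 CPM in ecko, against 181 to 225 CPM in control, and mast cell markers to 707 to 741 against 599 to 758. Of 8 endothelial markers 7 were below control in their mean, 5 of them without overlap (Robo4, Cdh5, Tie1, Pecam1 and Emcn). Their summed level was 366 to 389 CPM in ecko, against 400 to 478 CPM in control, with no overlap. All 6 keratinocyte markers were below control in their mean, Krt15 without overlap, as were 4 of 5 adipocyte markers, Plin1 without overlap. All 5 skeletal muscle markers were above control with overlap, and of the mast cell markers Ms4a2 was higher without overlap. Fibroblast markers overlapped. None of these lists held a gene that edgeR called, and none held a gene at 0 counts in all 6 libraries. The part of myeloid cell number in the p200 values was not tested.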

How the data were processed

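Poly(A) RNA libraries of ear skin were analysed from the deposited table of expected counts, estimated read numbers per gene. This unit is an assumption, taken from the RSEM entry in the processing notes and from the values. Totals differ between libraries, and 10.1% to 10.4% of the values of a library are not whole. RSEM 1.3.1, HISAT2 2.2.1, Bowtie2 2.4.5 and the build GRCm38.p6 appear in the processing notes of the submitters, without roles. The annotation, strand setting and read length are not given in the sources used here.

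Counts were rounded and tested with edgeR 4.0.16 in R 4.3.3 (filterByExpr with a minimum count of 10, TMM, robust glmQLFit, glmQLFTest; 14920 genes tested; Benjamini-Hochberg threshold 0.05). SE was taken as |log2 fold change| / sqrt(F). Alternatives were DESeq2 1.42.0, limma-voom 3.58.1, other scalings and filters, a fit without robust estimation, a replicate block, Ddx3y as covariate and leaving out each library. The edgeR step was tested on simulated data. Totals of 16987130 to 17979182 counts set the precision, and reads carry no molecular identifiers.

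The members, the gene lists and the alternatives were chosen with earlier results of these data known. The text names all members, of each pathway, partner and neighbour list the 4 genes with the smallest p, and the 5 nearest genes by root mean square difference of centred log2 CPM (prior count 2). Cell type markers were named where their groups did not overlap. Pycard, Cgas, Tmem173, Ifnb1, Ifng, Rnaseh2a, Xrcc5, Rnaseh2b, Ddx41, Ccr2 and Vcan lie outside it and were picked with their values known. Gene neighbours and transcripts came from GENCODE M21 (GRCm38), gene spans and promoters from RefSeq GRCm38.p6. Upstream sequences were aligned globally with Biopython 1.88.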

Additional observations from a re-analysis of the deposited data

How the results depend on the processing

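The median log2 fold change of the 12 members was 0.92 to 0.95 under the other scalings, filters and models and 0.80 to 1.11 with 1 library left out. Members whose groups did not overlap, higher in ecko, numbered 8 to 10 with 1 library left out. The number of calls depended on the model. DESeq2 called 87 genes higher and 26 lower, with 6 members among the higher, and the replicate block called 88 and 10, with 5 members (Ifi204, Ifi206, Ifi209, Ifi213 and Mndal). The Ddx3y covariate gave 1 gene higher, and leaving out 1 library gave 0 to 2 higher (2 without ecko 3), in each case with 0 members. The cause was not tested. Deviations of libraries with equal replicate numbers correlated at 0.162, -0.237 and -0.0726 across genes, and those with unequal numbers at -0.258 to 0.336. The mean of the members fell from replicate 1 to 3 in both groups. Such values cannot settle whether the numbers pair the samples, and the block shows only how calls move. With 1 library left out Ifi203 ran from -0.0746 (without ecko 1) to 0.29 (-0.0382 without control 3) and Ifi202b from -0.0328 (without ecko 1) to 0.17 (-0.0161 without control 1 and -0.00105 without control 2). The sums of Ifi205 or Ifi204 with Ifi211 and the motif AAATNGAAA were added after the data were seen. Low counts limit Ifi206, Ifi208 and Ifi213.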
